A study of Mus musculus with 6 samples.

Results

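Immediate early genes of the AP-1 and EGR groups were followed as a set of 10 genes, taken by symbol from the deposited count matrix: Fos, Fosb, Jun, Junb, Jund, Egr1, Egr2, Atf3, Ier2 and Dusp1. All 10 were among the 55291 genes listed, and 9 of them were among the 9815 genes with enough counts to be tested, Fosb being the exception. The cells were bone marrow-derived macrophages (BMDMs) from 3 WT and 3 PYK2 KO C57BL/6 mice, with 1 RNA-seq library per mouse. Marrow of femurs and tibias from both genotypes was grown for 7 days in medium containing 20% L929-conditioned medium, which supplies the growth factor M-CSF, and the labels name no further agent. The PYK2 KO mice lack PYK2 in all tissues, so the gene was absent throughout differentiation and not only in the mature macrophage. Age, sex and whether the mice were littermates are not given in the sources used here. The question for these genes was whether their resting levels differed between genotypes by more than they differed between mice of 1 genotype.

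Immediate early genes are transcribed within minutes of a signal, without new protein synthesis, and their mRNAs are short-lived. The signals reach them through MAP kinases, which act on serum response factor with its ternary complex partners at CArG boxes and on CREB-type factors at cyclic AMP response elements (CREs). Fos and Jun proteins pair to form AP-1, EGR proteins are zinc finger transcription factors, and several products, Dusp1 among them, switch the signal off again. PYK2 is a tyrosine kinase related to focal adhesion kinase that is activated by adhesion and calcium and can feed into the MAP kinase pathways. In macrophages these genes respond to adhesion, growth factors and microbial products.

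The sequence just before the start is shown for 4 chosen members, since elements that read such signals can lie there. For Egr2, which had 5 windows, the first that held both a CArG box and the CRE core was chosen, so their presence was fixed beforehand. Of the 4 stretches, 3 carry the CRE core TGACG and 1, Jun, does not. The stretches are from RefSeq on GRCm38.p6 and run 5′ to 3′ on the strand of the gene up to the last base before the annotated start. Capitals mark the CRE core TGACG on either strand and the CArG box. The Jun stretch holds tgacatca, which differs in 1 base from the whole CRE, TGACGTCA. It is not marked, and the patterns searched could not match it. That of Fos is chr12:85473740-85473889 on the plus strand, that of Dusp1 chr17:26508520-26508622 on the minus strand (47 bases next to the RefSeq start were left out, since GENCODE M21 places them in an exon), that of Egr2 chr10:67537719-67537868 on the plus strand and that of Jun chr4:95052223-95052372 on the minus strand.
Fos: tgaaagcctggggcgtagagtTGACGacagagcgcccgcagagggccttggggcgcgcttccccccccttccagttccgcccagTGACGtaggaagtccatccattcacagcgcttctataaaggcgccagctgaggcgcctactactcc
Dusp1: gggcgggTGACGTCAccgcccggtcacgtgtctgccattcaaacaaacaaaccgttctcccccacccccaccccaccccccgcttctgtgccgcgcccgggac
Egr2: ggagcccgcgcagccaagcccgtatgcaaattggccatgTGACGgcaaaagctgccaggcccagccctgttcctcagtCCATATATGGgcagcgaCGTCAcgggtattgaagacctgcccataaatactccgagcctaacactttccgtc
Jun: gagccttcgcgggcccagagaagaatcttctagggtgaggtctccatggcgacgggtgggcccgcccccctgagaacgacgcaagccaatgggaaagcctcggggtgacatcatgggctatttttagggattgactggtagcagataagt

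The reference table held windows of 300 bases around the start (250 before and 50 after) for 8 of the 10 members, with 5 windows for Egr2 and 1 for each of the others. Egr1 and Ier2 had no window and were not searched. A member was counted where any of its windows held the motif, so that the count for Egr2 rests on 5 windows, while the shares are of single windows. The whole CRE, TGACGTCA, was found in 1 of these 8, Dusp1, with its first base 143 bases before the start, and in 1.79% of all 32851 windows. With 1 base free, TGACGNCA, it was found in 3 of 8 (Dusp1, Egr2 and Fos) and in 3.21% of all windows. The CRE core alone, TGACG, which both longer forms contain, was found in 6 of 8 (Atf3, Dusp1, Egr2, Fos, Fosb and Junb) and in 20.8% of all windows. A CArG box was found in 1 of 8, Egr2, with its first base 72 bases before the start shown above, and in 1.63% of all windows. Another Egr2 window held a different CArG box. The AP-1 site TGANTCA was in none of the 8 and in 7.81% of all windows, and the EGR site GCGNGGGCG was in 1, Fosb, and in 5.55%. All searches covered both strands, and a match says only that the letters are present in the window. Sites farther than 250 bases before the start were not searched, so a member without a match may still carry one there.

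The deleted gene was checked first. Ptk2b, which encodes PYK2, was counted 737, 701 and 568 times in WT 1, 5 and 6 but 71, 64 and 69 times in PYK2 KO 2, 3 and 4, so each library carried its labelled genotype. The libraries held between 2857097 and 3917207 counts, and levels are given as CPM (a gene's counts set to a common library size), scaled by edgeR's TMM factors, which ran from 0.984 to 1.02. All 8 macrophage markers passed the low-count filter, with a summed level between 29147 and 31331 CPM, while Cd79a, Ms4a1, Pax5, Cd3d, Cd3e and Flt3 were at 0 in all 6 libraries. Of the other B and T cell markers, Cd79b was at 13.8 to 23.2 CPM and Cd4 at 4.47 to 8.68 CPM. Neutrophil markers (5 of 7 tested) summed to 155.8, 107.8 and 122.3 CPM in WT and to 118.4, 202.6 and 206.2 CPM in PYK2 KO, with Ly6g at 1 count at most. Of the 5, 4 were higher and 1 lower in PYK2 KO, with log2 fold changes from -0.26 to 1.19. At an unadjusted p-value under 0.05 in edgeR there were 2, both higher, against 6.03% of all tested genes, and 0 passed an adjusted 0.05. In such bulk samples, fewer cells with a transcript and less transcript per cell cannot be told apart.

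Egr1 and Fos differed more between mice than any other member, and in both the WT 6 library stood far above the rest. Egr1, a zinc finger factor induced by growth factors and adhesion, was at 10.5, 9.24 and 80.3 CPM in WT 1, 5 and 6 and at 4.17, 12.5 and 1.19 CPM in PYK2 KO 2, 3 and 4. WT 6 was thus 8.69 times the median of the other 5 libraries, PYK2 KO 3 lay above WT 1 and WT 5, and PYK2 KO 2 and 4 lay below all 3 WT values. In WT 6 this rested on 229 counts, and in PYK2 KO 4 on 4 counts, whose exact binomial 95% interval was 0.329 to 3.09 unscaled CPM. The means were 33.3 ± 40.7 CPM in WT mice and 5.94 ± 5.84 CPM in PYK2 KO (SD, n = 3 mice each).

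The log2 fold change of Egr1, PYK2 KO against WT, was -2.45 (standard error 0.77, 95% interval -4.09 to -0.82), with an unadjusted p = 0.0058 and, by edgeR's quasi-likelihood test, an adjusted p = 0.537. The genotypes overlapped, and an exact permutation test of the mean log2 levels gave p = 0.3 (two-sided), where 3 against 3 mice cannot go below 0.1. Without WT 6 the log2 fold change was -0.78 (95% interval -1.88 to 0.32), and without PYK2 KO 3 it was -3.57 (95% interval -5.68 to -1.45).

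Fos, whose protein is the classical partner of Jun in AP-1, lies at chr12:85473890-85477273 on the plus strand. Its level was 21.5, 26.6 and 102.7 CPM in WT 1, 5 and 6 and 13.5, 32.9 and 13.7 CPM in PYK2 KO 2, 3 and 4. The order of libraries resembled that of Egr1: WT 6 was highest at 4.79 times the median of the other 5, PYK2 KO 3 came next, and PYK2 KO 2 and 4 were lowest. The means were 50.2 ± 45.5 CPM in WT mice and 20.0 ± 11.2 CPM in PYK2 KO (SD, n = 3 mice each), and the log2 fold change was -1.29 (standard error 0.48, 95% interval -2.31 to -0.27, adjusted p = 0.661 from edgeR). Without WT 6 it was -0.28 (95% interval -0.92 to 0.36).

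Fosb, the closest relative of Fos, was practically silent. It had 1 count in PYK2 KO 2 and 0 counts in the other 5 libraries, and 3 counts, the limit that a count of 0 allows, correspond to between 0.766 and 1.05 unscaled CPM. No fold change was computed.

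**Figure D1:**
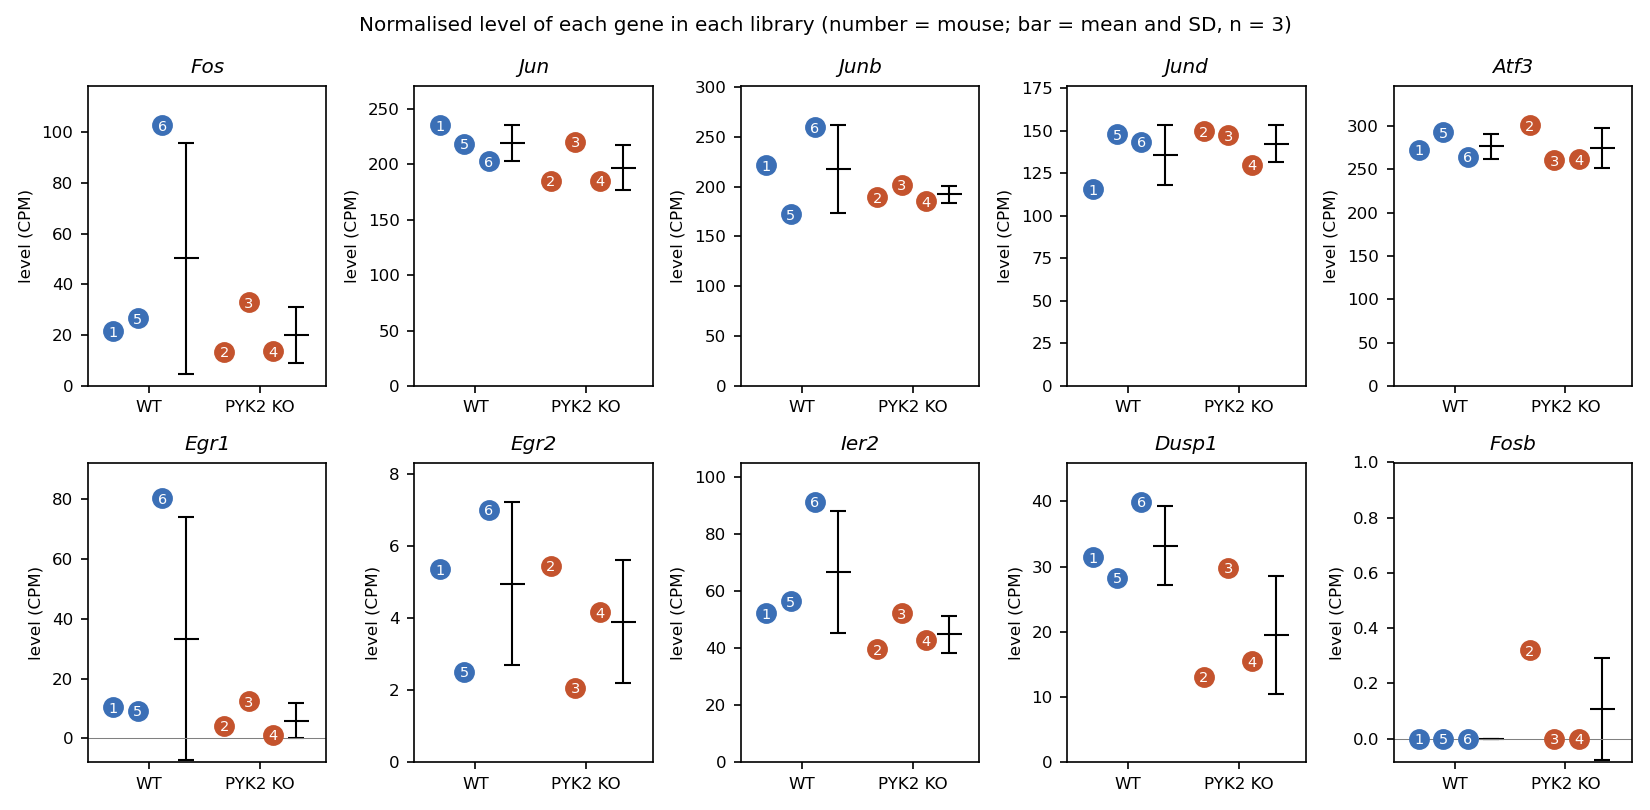
Level in CPM (vertical axis, a separate linear scale for each gene) of the 10 genes in the 3 WT (blue) and 3 PYK2 KO (orange) libraries, each point numbered by its mouse, with the mean and SD (n = 3) as a bar beside the points; the SD bar of Egr1 in WT reaches below 0, which a level cannot. WT 6 stands apart for Egr1 and Fos (80.3 and 102.7 CPM), whereas the points of Jun, Jund and Atf3 lie close together.

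Ier2 and Dusp1 shared with Egr1 and Fos the highest library and the lowest pair of libraries, with smaller differences between mice. Ier2, which encodes a small nuclear protein induced by serum and growth factors, lies at chr8:84661331-84662852 on the minus strand. Its level was 52.35, 56.5 and 91.5 CPM in WT 1, 5 and 6 and 39.8, 52.30 and 42.9 CPM in PYK2 KO 2, 3 and 4. Ier2 was the single member whose genotypes did not overlap, although the gap between WT 1 and PYK2 KO 3 was far smaller than the counting error of either; over all tested genes 10.2% did not overlap in either direction, 5.07% with PYK2 KO lower. PYK2 KO libraries averaged 67.4% of the WT level (66.8 ± 21.5 against 45.0 ± 6.52 CPM, SD, n = 3 mice each). The log2 fold change was -0.55 (standard error 0.18, 95% interval -0.93 to -0.17, adjusted p = 0.551 from edgeR), and without WT 6 it was -0.28 (95% interval -0.57 to 0.02).

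Dusp1, the phosphatase that inactivates p38, JNK and ERK, was at 31.4, 28.3 and 40.0 CPM in WT 1, 5 and 6 and at 13.2, 29.8 and 15.5 CPM in PYK2 KO 2, 3 and 4. PYK2 KO 2 and 4 were below every WT library, while PYK2 KO 3 lay between WT 5 and WT 1. The PYK2 KO mean was 58.7% of the WT mean (33.2 ± 6.05 against 19.5 ± 9.00 CPM, SD, n = 3 mice each), with a log2 fold change of -0.77 (standard error 0.23, 95% interval -1.27 to -0.28, adjusted p = 0.497 from edgeR). Unlike Egr1, Fos and Ier2, the value depended little on WT 6, without which it was -0.63 (95% interval -1.17 to -0.09). The value was -1.20 without PYK2 KO 3 (adjusted p = 0.0185 from edgeR), past the threshold of 0.05. Left out there was the PYK2 KO library nearest the WT level. Without PYK2 KO 2 the value was -0.56 (adjusted p = 0.648 from edgeR), and without PYK2 KO 4 it was -0.63, both short of the threshold. The exons of Dusp1 share 11 bases with those of Ergic1 on the opposite strand.

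Egr2, the relative of Egr1 with the CArG box shown above, was measured with few reads, between 6 and 21 counts per library. Its level was 5.36, 2.52 and 7.01 CPM in WT 1, 5 and 6 and 5.45, 2.08 and 4.17 CPM in PYK2 KO 2, 3 and 4. It did not follow the order of Egr1: WT 6 was again highest, but PYK2 KO 2 came next and PYK2 KO 3 was lowest. The log2 fold change was -0.30 (standard error 0.40, 95% interval -1.15 to 0.55, adjusted p = 0.964 from edgeR).

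Jun, Jund and Atf3 varied little between mice, and Junb varied more, mainly among the WT mice. Jun, at chr4:95049034-95052222 on the minus strand, was at 235, 219 and 203 CPM in WT 1, 5 and 6 and at 185, 220 and 185 CPM in PYK2 KO 2, 3 and 4. WT 6, the highest library for Fos, was the lowest WT library for Jun, and the log2 fold change was -0.16 (95% interval -0.35 to 0.04, adjusted p = 0.898 from edgeR), or -0.24 without PYK2 KO 3 (95% interval -0.46 to -0.03) and -0.10 without WT 1. Junb, a weaker activator than Jun that pairs with the same partners, was at 221, 172 and 260 CPM in WT and at 189, 202 and 185 CPM in PYK2 KO, in the same order of mice, with a log2 fold change of -0.18 (95% interval -0.43 to 0.07). Here WT 6 was highest and WT 5 lowest, so the WT libraries enclosed all PYK2 KO values.

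Jund, the Jun gene with the steadiest expression in most cells, was at 116, 148 and 144 CPM in WT mice and 150, 148 and 130 CPM in PYK2 KO, with a log2 fold change of 0.07 (95% interval -0.14 to 0.29). Atf3, a stress-induced factor of the ATF/CREB family, was at 272, 293 and 264 CPM in WT mice and 301, 260 and 261 CPM in PYK2 KO, with a log2 fold change of -0.01 (95% interval -0.20 to 0.17). Of the 4 genes Atf3 and Jund had the genotype means closest together, and none of the 4 intervals reached a change of 1 on the log2 scale. The counting is not stated to use strand, and exons of Junb share 173 bases with those of Prdx2, those of Jun 232 with the antisense gene Junos, and those of Jund 877 with the antisense gene Gm11175, all on the opposite strand, so these 3 levels are uncertain to that extent. Junos had between 1 and 7 counts and Gm11175 had 0, while Prdx2 had between 1126 and 1601.

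None of the 9 tested members passed the threshold of an adjusted p-value under 0.05 in edgeR's quasi-likelihood test, against 0.255% of all tested genes (25 of 9815), 0.143% lower and 0.112% higher in PYK2 KO. At an unadjusted p-value under 0.05 there were 4 members (Egr1, Fos, Ier2 and Dusp1), all lower in PYK2 KO, against 6.03% of all genes in either direction and 2.63% in the lower one. DESeq2 and limma voom called 0 members as well, each with 3 at an unadjusted p-value under 0.05 (Egr1, Ier2 and Dusp1). The log2 fold change was below 0 for 8 of 9 members and for 49.5% of all genes, and its median was -0.30 over the members and 0.0019 over all genes. These counts depended on single mice: without WT 6, only Dusp1 of the 9 remained at an unadjusted p-value under 0.05. They also depended on how the spread was modelled. With all 18659 genes that had a count kept in the fit, the same 4 members passed the threshold in edgeR, against 0.852% of all genes in that fit (159 of 18659), under a prior so strong that a gene's own spread between mice had almost no weight. A robust fit, which lets genes of large spread keep their own variance and was chosen after the data were seen, left 0 members past the threshold and 2, Ier2 and Dusp1, at an unadjusted p-value under 0.05, and widened the interval of Egr1 to -6.42 to 1.52 and that of Fos to -3.74 to 1.16.

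**Figure D2:**
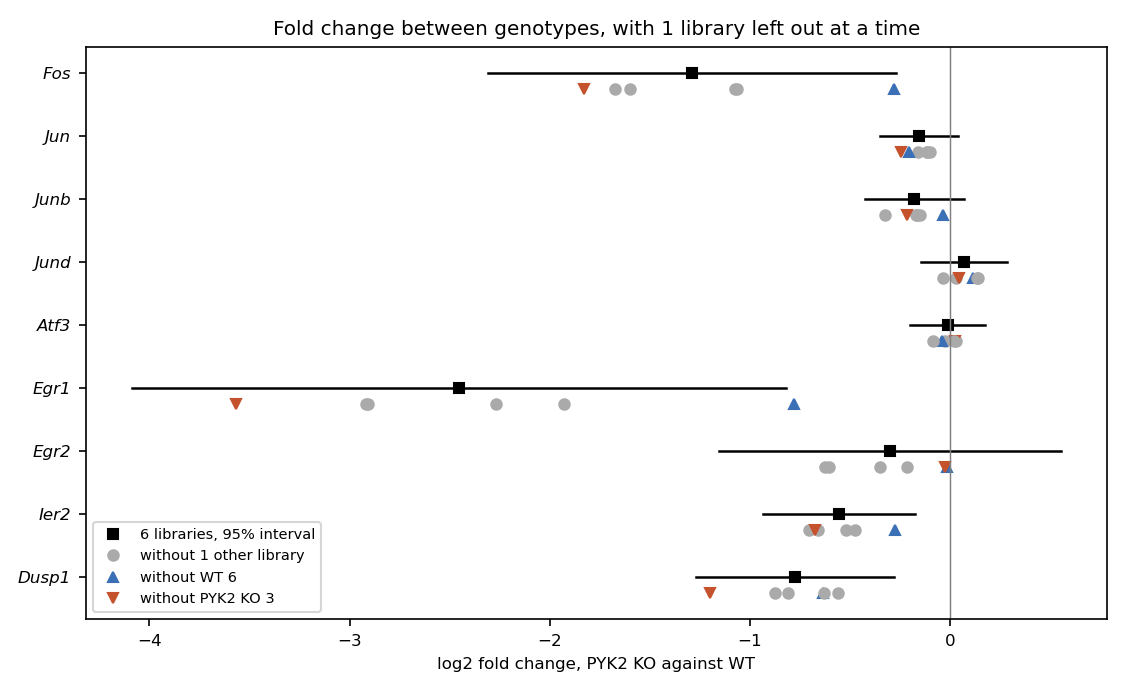
Log2 fold change, PYK2 KO against WT (horizontal axis), of the 9 tested members with all 6 libraries (black squares, with the 95% interval as a line) and with 1 library left out at a time (symbols below each line). Leaving out WT 6 (blue triangles) brings Egr1 to -0.78 and Fos to -0.28, and leaving out PYK2 KO 3 (orange triangles) brings Dusp1 to -1.20.

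The spread between mice of 1 genotype set Egr1 and Fos apart from nearly all genes, those of like level included. The SD of log2 CPM within genotype, pooled over both, was 1.57 for Egr1 and 0.99 for Fos, beside a median of 0.17 over all tested genes. Egr1 ranked 7 and Fos 42 among the 9815 genes from the largest SD down, and of the 500 genes nearest in mean level 0 had a larger SD in either case. Of the 6 genes above Egr1, 1 was annotated as protein-coding and 4 as pseudogenes, and 1 could not be matched to the annotation. The SD came from both genotypes: from WT 6 in WT, and in PYK2 KO from a 10.5-fold range of Egr1 and a 2.44-fold range of Fos.

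Dusp1 and Ier2 also varied more than most genes of like level, with SDs of 0.46 and 0.34 that 3 and 6 of their 500 neighbours exceeded. For Egr2 the SD was 0.63, exceeded by 32 of 500 neighbours, among which low counts widen the spread in general. Junb had 0.22, exceeded by 19. Jund, Jun and Atf3, with SDs of 0.16, 0.13 and 0.10, were exceeded by 63, 124 and 243 of 500 neighbours, so that Atf3 varied like an average gene of its level. The ranking is a description of these 6 libraries.

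**Figure D3:**
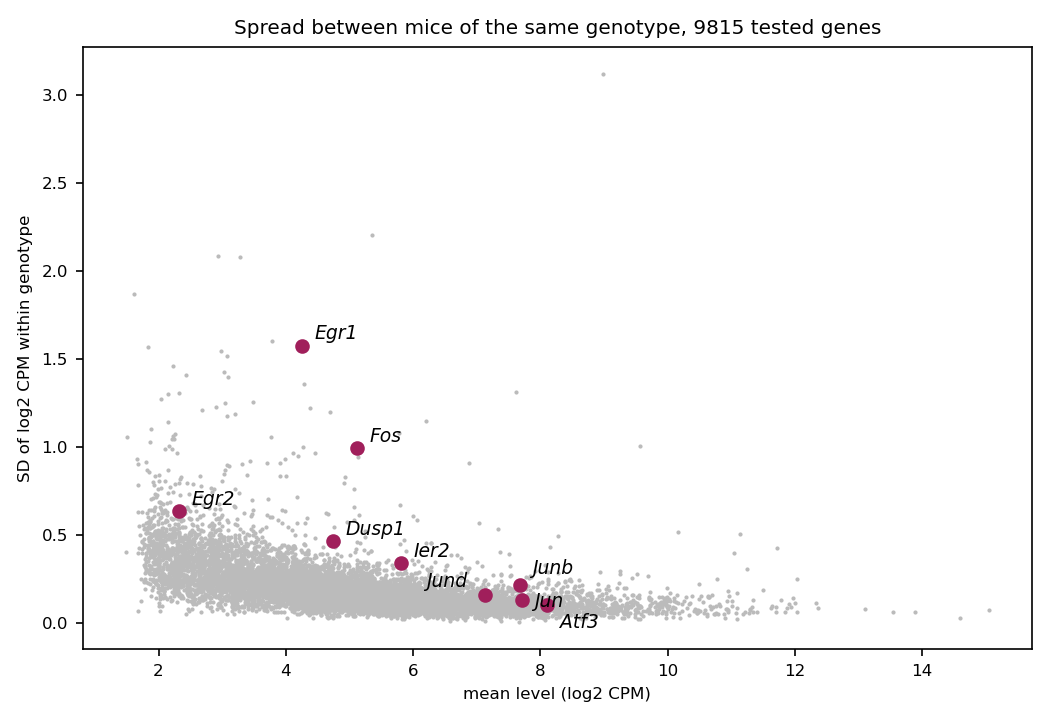
SD of log2 CPM between mice of the same genotype (vertical axis, pooled over both genotypes) against the mean level in log2 CPM (horizontal axis) for all 9815 tested genes (grey) and the 9 tested members (purple). Egr1 (1.57) and Fos (0.99) lie far above genes of like level, and Jun and Atf3 lie within the band.

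Within a family, the share of counts taken by 1 member does not depend on the scaling between libraries. Fos took 68.3%, 71.4% and 92.1% of the counts of Fos, Fosb, Fosl1 and Fosl2 in WT 1, 5 and 6 and 58.3%, 79.2% and 56.8% in PYK2 KO 2, 3 and 4. Egr1 took 66.1%, 78.6% and 92.0% of the counts of Egr1 and Egr2 in WT and 43.3%, 85.7% and 22.2% in PYK2 KO. The highest WT share was thus WT 6 for both, and among PYK2 KO mice 3 was highest for both, so that the genotypes overlapped. Junb took 37.8% ± 5.49 of the counts of the 3 Jun genes in WT and 36.2% ± 0.78 in PYK2 KO (SD, n = 3 mice each). The differences, PYK2 KO minus WT, were -12.5, -28.5 and -1.64 percentage points for Fos, Egr1 and Junb, with p = 0.3, 0.3 and 0.7 in two-sided exact permutation tests (adjusted over the 3 shares 0.45, 0.45 and 0.7). The Fos difference was -5.10 points without WT 6 and -19.7 without PYK2 KO 3, and that of Egr1 was -14.4 without PYK2 KO 4 and -46.1 without PYK2 KO 3.

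Taken mouse by mouse, WT 6 was the highest library for 6 of the 9 tested members, as it was for 16.6% of all tested genes, and PYK2 KO 2 was the lowest for 4 of 9, as it was for 15.1% of all tested genes. For Egr1, Fos, Ier2 and Dusp1, WT 6 was highest each time and PYK2 KO 2 and 4 were the lowest pair each time, a grouping of genes noticed after their values were seen. PYK2 KO 3, with as little Ptk2b as the other PYK2 KO libraries (64 counts), was near WT 1 and WT 5 for all 4. The summed level of 10 heat shock genes was 2982 CPM in WT 6 and between 2677 and 3027 CPM in the other 5 libraries, and the mitochondrial share of counts was between 0.037% and 0.046% in all 6. WT 6 was also the shallowest library (2857097 counts), with PYK2 KO 3 next (2889921). Whether handling of the cultures, depth or cell composition had a part in the pattern was not tested.

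**Figure D4:**
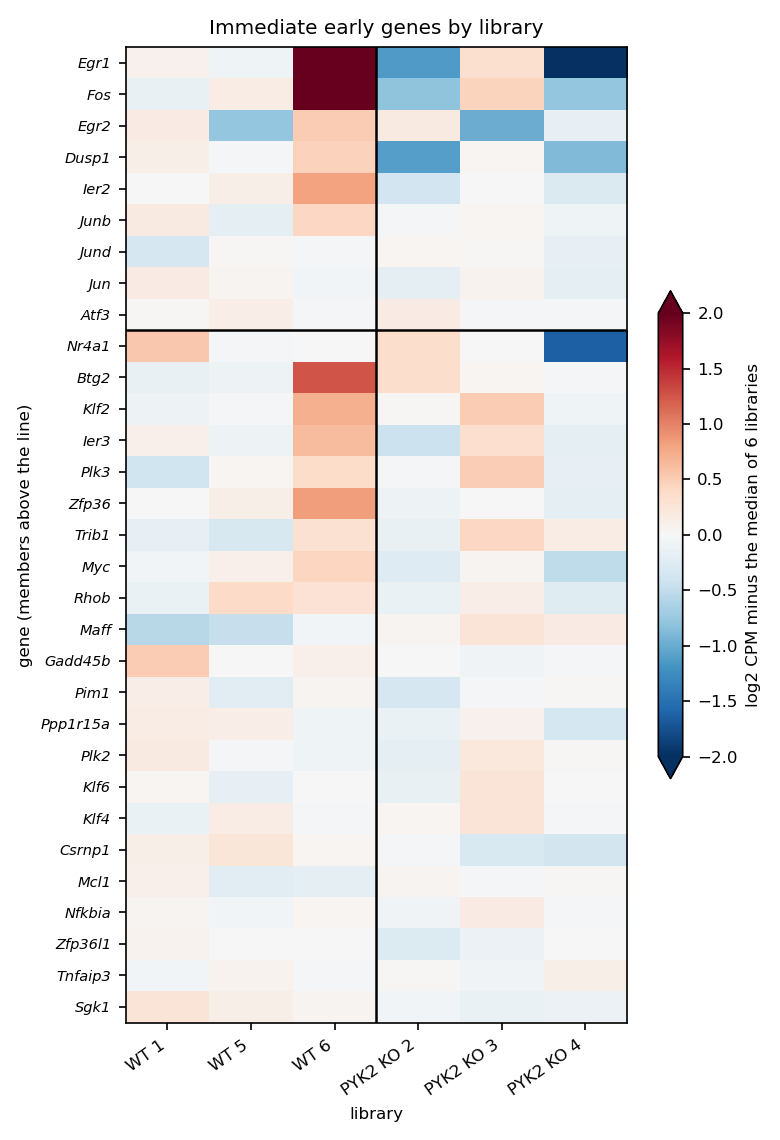
Difference of each library's log2 CPM from the gene's median over the 6 libraries (colour, cut at -2 and 2) for the 9 tested members (above the horizontal line) and 22 other immediate early genes (below it), with WT to the left of the vertical line. WT 6 is deep red for Egr1 and Fos and red for Btg2 and Zfp36, and PYK2 KO 2 and 4 are blue for Egr1, Fos, Dusp1 and Ier2.

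The same fit was read for 7 lists of related genes, in which edgeR's quasi-likelihood test, DESeq2 and limma voom each called 0 genes. Of 31 other immediate early genes, 22 were tested. Of these, 14 had a log2 fold change below 0 and 8 above, with a median of -0.13, and 3 genes reached the unadjusted level (6 without PYK2 KO 3 and 1 without PYK2 KO 4). All genes tested gave 49.5% below 0 and 6.03% at that level, 2.63% in the lower direction. Zfp36, which encodes an RNA-binding protein that destabilises AU-rich mRNAs, was at 45.7, 49.5 and 82.4 CPM in WT 1, 5 and 6 and at 42.3, 45.7 and 39.6 CPM in PYK2 KO 2, 3 and 4, with a log2 fold change of -0.46 (adjusted p = 0.702 from edgeR). WT 6 stood above the rest, as for Egr1, Fos and Ier2, and without it the log2 fold change was -0.16. Sgk1, a kinase gene induced by serum and glucocorticoids, was at 111, 100.5 and 96.4 CPM in WT mice and 89.2, 84.9 and 85.5 CPM in PYK2 KO, without overlap and with WT 6 the lowest of the WT libraries (log2 fold change -0.25, adjusted p = 0.619 from edgeR). The third was Myc, named here to complete the count, at -0.39. Of the 22 genes, 2 did not overlap with PYK2 KO lower, Sgk1 among them, and 1 did not overlap with PYK2 KO higher. Among all genes tested, 10.2% did not overlap, 5.07% with PYK2 KO lower. WT 6 was the highest library for 5 of the 22 genes and the lowest for 0, while WT 1 and PYK2 KO 3 were each the highest for 7; over all tested genes WT 6 was highest in 16.6% and lowest in 16.7%.

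The other AP-1 genes, those of the partners and repressors Fosl1, Fosl2, Batf, Batf2, Batf3, Jdp2, Atf2 and Atf7, gave 7 tested of 8, with 3 above and 4 below 0, a median of -0.03 (3 of 7 below 0 without WT 1 or without PYK2 KO 3) and 0 genes at an unadjusted p-value under 0.05. The smallest p-values were those of Batf3, needed for a class of dendritic cells, with a log2 fold change of -0.47 (-0.80 without PYK2 KO 2 and -0.27 without PYK2 KO 3), and Atf7, with -0.14 (-0.25 and -0.04 without the same libraries). Factors that act on immediate early promoters (SRF, the ternary complex and CREB factors, and the EGR co-repressors Nab1 and Nab2) were tested in 12 of 12, with 7 above and 5 below 0 and a median of 0.01, a majority that turned with 1 library left out (8 of 12 below 0 without PYK2 KO 2, and 7 of 12 without WT 5 or without PYK2 KO 3). Creb1, the 1 gene of this list at an unadjusted p-value under 0.05 and one of the factors that bind the CRE, had 12, 13 and 5 counts in WT and 15 in each PYK2 KO library (log2 fold change 0.73, adjusted p = 0.823 from edgeR), and Crem, its relative, had a log2 fold change of 0.38 (0.22 without PYK2 KO 4). The genotypes did not overlap for Creb1, with PYK2 KO higher, as was so for 507 of the 9815 tested genes.

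Upstream, 15 of 16 genes of the ERK cascade were tested, with 9 above and 6 below 0 and a median of 0.01, and 1 reached the unadjusted level. Here too the majority turned, with 9 of 15 below 0 without WT 1 or without PYK2 KO 2 and 8 of 15 without PYK2 KO 3. In the JNK and p38 cascades 10 of 13 genes were tested, with 6 above and 4 below 0 and a median of 0.05 (6 of 11 below 0 without WT 6 or without PYK2 KO 2), and 0 reached the unadjusted level. Map3k5 and Map3k1, kinases at the top of these cascades, had log2 fold changes of 0.35 and -0.32. Map3k1 overlapped between genotypes, whereas Map3k5 did not, with PYK2 KO higher. Among all genes tested, 10.2% did not overlap in either direction.

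Downstream, the other MAP kinase phosphatases and ERK feedback inhibitors, the group to which Dusp1 belongs by function, had 10 of 14 genes tested, all 10 with a log2 fold change below 0, from -0.97 to -0.0019, with a median of -0.09 beside 0.0019 over all genes and with 1 gene, Dusp5, at the unadjusted level. Over all tested genes 49.5% were below 0, and the count of this list was 8 of 10 under upper-quartile scaling, 9 of 10 without scaling factors and 6 of 10 without PYK2 KO 4. Dusp5, a nuclear phosphatase specific for ERK, had 14, 12 and 9 counts in WT 1, 5 and 6 and 5, 5 and 6 in PYK2 KO 2, 3 and 4. Its genotypes did not overlap, with 3.36 ± 0.21 CPM in WT mice and 1.71 ± 0.09 CPM in PYK2 KO (SD, n = 3 mice each), and PYK2 KO 3 was as low as the others. At 5 to 14 counts these SDs were below counting error, and all 500 genes nearest in mean level had a larger SD. The log2 fold change was -0.97 (95% interval -1.78 to -0.15, adjusted p = 0.706 from edgeR). Dusp2, another nuclear phosphatase, was at 11.7, 12.3 and 18.9 CPM in WT mice and between 7.97 and 11.5 CPM in PYK2 KO mice, also without overlap, with a log2 fold change of -0.46 (-0.23 without WT 6). The gap between WT 1 (46 counts) and PYK2 KO 2 (36 counts) was far smaller than the counting error of either. Over all tested genes 10.2% did not overlap, 5.07% with PYK2 KO lower. Heat shock genes, which are induced by heat and other stress on proteins, were tested in 9 of 10, with 6 above and 3 below 0 and a median of 0.07, and 0 reached the unadjusted level. Hsp90aa1 and Hspe1 had the smallest p-values among them, with log2 fold changes of 0.27 (0.12 without WT 5) and 0.15 (0.09 without PYK2 KO 4). Hspe1 did not overlap between genotypes, with PYK2 KO higher, though WT 6 and PYK2 KO 2 were close (194 and 195 CPM).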

How the data were processed

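BMDM libraries of 3 WT and 3 PYK2 KO mice were made with a bulk version of MARS-seq, which reads transcript 3′ ends, so that levels were compared between mice and not between genes. The authors deposited raw counts, made with the UTAP pipeline and not normalized. The submitters' processing notes name cutadapt, STAR and the mm10 build. Whether molecular identifiers were collapsed is not stated, so intervals and floors cover counting error only. Totals ran from 2857097 to 3917207 counts, and no library was a duplicate (chi-square per degree of freedom at least 2.25 between libraries of a genotype).

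From the counts, CPM, fold changes and p-values were computed in R 4.3.3 with edgeR 4.0.16 (filterByExpr with a minimum count of 10, TMM, quasi-likelihood F test on genotype, Benjamini-Hochberg adjustment over 9815 genes, threshold 0.05). CPM were put on the log2 scale with a prior count of 2. The standard error was the fold change over the square root of F. The fit was tested on simulated data. Exact permutation tests over mice were run in R for the levels of single genes. For the family shares they were run in Python 3.11.15 with scipy 1.17.1. Alternatives were DESeq2 1.42.0, limma 3.58.1 (voom), other edgeR tests, normalizations and filters (a stricter one kept genes with at least 10 counts in every library), a robust fit chosen after seeing the data, and leaving out each library. Members and lists were chosen with earlier results of these data known. The rule named all members, Ptk2b and, of each list, genes past the threshold plus the 2 with the smallest unadjusted p-values. The genes so named in the ERK cascade are not reported here. Positions were taken from GENCODE M21 (GRCm38) and promoter sequences from RefSeq on GRCm38.p6, the assembly of mm10.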

Additional observations from a re-analysis of the deposited data

How the results depend on the processing

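No member passed the threshold with all 6 libraries under any normalization or test run, or under the stricter filter (which left 7 members, without Egr1 and Egr2). Without the low-count filter 4 did (Fos, Egr1, Ier2 and Dusp1, with edgeR adjusted p-values of 1.81e-14, 6.37e-27, 0.00102 and 0.000497), as did Zfp36 (0.0317). That fit had 74636 total degrees of freedom per gene beside 15.7, so a gene's own spread between mice carried almost no weight in it, and the standard error of Egr1 was 0.22 beside 0.77. With 1 library left out, 0 to 1 members passed, the 1 being Dusp1 without PYK2 KO 3. The number of all genes past the threshold was 25, 159 without the filter, 45 with the likelihood ratio test, 43 with edgeR's exact test, and 14 to 34 with 1 library left out (14 without PYK2 KO 4, 15 without PYK2 KO 2 and 15 without WT 5). Directions turned only near 0: Jund without WT 1 (-0.0368, on a log2 range of -0.0368 to 0.14), Atf3 without WT 5, PYK2 KO 3 or PYK2 KO 4 (0.0304, 0.0222 and 0.0213, range -0.0851 to 0.0304) and the Junb share without WT 6 (0.87 points, range -4.57 to 0.87). Leaving out 1 library moved Egr1 between -3.57 and -0.78, Fos between -1.83 and -0.28, Ier2 between -0.71 and -0.28, Egr2 between -0.63 and -0.02 and Junb between -0.32 and -0.04 on the log2 scale, the upper end being without WT 6 each time. Dusp1 moved between -1.20 (without PYK2 KO 3) and -0.56 (without PYK2 KO 2). The median log2 fold change of all genes was 0.0019 and at most 0.0114 under the other scalings. No paired analysis was possible because no number is shared between genotypes (1, 5 and 6 in WT, 2, 3 and 4 in PYK2 KO). The low counts of Egr2, Fosb and Dusp5 limit what could be seen in them.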
